A study of Rattus norvegicus with 8 samples.

Results

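The genes described here encode the voltage-gated, inwardly rectifying, two-pore and calcium-activated potassium channels, the voltage-gated sodium and calcium channels, the HCN pacemaker channels, and the sulfonylurea receptors Abcc8 and Abcc9. They were chosen by gene symbol alone, from probe sets (the groups of array probes that read 1 transcript) with a single symbol in the platform annotation. The rule found 185 of 31042 probe sets, which read 116 of 14217 genes. For each gene the brightest probe set, by its mean over the 8 arrays, represents the gene. Others are given beside it for some genes only. Elsewhere a difference is that of the representative probe set. RNA was measured on Affymetrix arrays in 8 isolated hearts of male Wistar rats, for which the labels give no age. Each heart was excised and perfused through the aorta for 2 h in a Langendorff apparatus without recirculation of the perfusate. In 4 control hearts the perfusate held no drug, and in 4 hearts it held 2 µM doxorubicin, an anthracycline that poisons topoisomerase II. Both groups share the isolated, perfused preparation, and the labels describe the hearts within each as biological replicates.

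Ion channels set the shape of the cardiac action potential. Sodium channels carry the upstroke, L-type calcium channels hold the plateau and trigger contraction, and several potassium channels bring the membrane back to rest. In the rat ventricle a fast transient outward current, built from Kv4 subunits and the accessory protein KChIP2, does much of the repolarization. ATP-sensitive potassium channels, made of a pore (Kcnj8 or Kcnj11) and a sulfonylurea receptor (Abcc8 or Abcc9), open when cellular ATP falls.

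All 11 measured cardiomyocyte markers lay above the dimmest 25% of probe sets, which end at 4.16 log2, and their summed level was 16.97 to 17.02 log2 over the 8 hearts. Atrial markers differed between single hearts, with a summed level of 10.32, 13.34, 12.60 and 10.34 log2 in control hearts 1 to 4 and 12.55, 11.94, 10.57 and 14.32 log2 in doxorubicin hearts 1 to 4. The 18 hybridization control probe sets, which read transcripts added to the labelled sample, averaged 10.32 ± 0.17 log2 (SD, n = 4) on control arrays and 10.02 ± 0.08 log2 (SD, n = 4) on doxorubicin arrays. That difference of -0.30 had an exact permutation p of 0.0286, two-sided, the smallest that 4 against 4 arrays allow. A fit with this level as a covariate, which called 60 of 14217 genes against 422 without it, is given beside the calls it ends and the larger shifts among the genes described in full. Every control array lay above every doxorubicin array in this level (10.21 to 10.57 against 9.97 to 10.13 log2). Drug and hybridization level therefore cannot be told apart in that fit.

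Few channel transcripts passed the test. By the limma test adjusted over all 31042 probe sets (Benjamini-Hochberg, called under 0.05), 1 of 116 genes rose and none fell. The one called was Kcna2, a voltage-gated potassium channel subunit, which rose 1.69-fold. Among all 14217 genes 2.97% were called, 0.802% upward and 2.17% downward. At an unadjusted p under 0.05, 8 channel genes were higher (6.90%) and 2 lower (1.72%), against 9.67% and 7.07% of all genes (16.7% in either direction), so neither share exceeded the background. Every doxorubicin heart lay above every control heart for 6 channel genes (5.17%, against 5.75% of all genes), and below for none (4.69% of all genes). The median difference, doxorubicin minus control on the log2 scale, was -0.03 over the channel genes and 0.01 over all genes. Tested by probe set, 3 of 185 channel probe sets rose (1.62%), against 0.689% of all probe sets that rose and 2.21% called in either direction.

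The 8 genes with a higher level at an unadjusted p were Kcna2, Scn1a, Kcnk2, Scn4b, Kcnip2, Kcnj8, Abcc9 and Kcnj11. The 2 with a lower level were Kcnk5 and Kcnj14. Most channel genes read dimly on these arrays: 30 of 116 lay under 4.16 log2 and 75 under 5 log2. Of the 25 genes at 6 log2 or more, 7 (28.0%) were higher at an unadjusted p and none was lower, against 15.9% higher and 9.49% lower among the 7019 genes of all kinds at that level. Of the 75 under 5 log2 none was higher and 2 were lower, against 1.98% higher and 3.07% lower among all 5047 genes there, and their differences ran from -0.18 to 0.13.

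**Figure D1:**
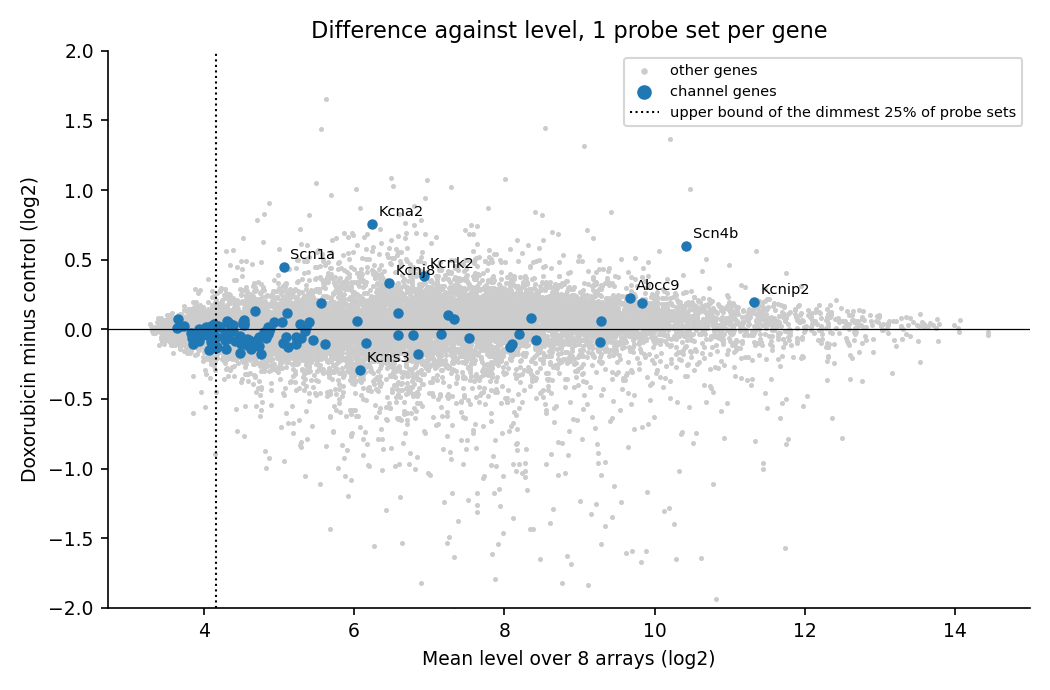
Doxorubicin minus control (log2, vertical axis) against the mean level over 8 arrays (log2, horizontal axis), 1 probe set per gene, with channel genes in blue and other genes in grey. The channel genes lie between -0.29 and 0.76, and 14 other genes fall outside the axis limits of 2 log2 either way.

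The intervals of most genes were narrow on the scale of these values. The 95% interval of the difference lay within 1.5-fold in either direction for 111 of the 116 genes. The other 5 were Kcna2, Scn4b, Scn1a, Kcnk2 and Kcns3. Only the representative probe set of each gene was counted. For Abcc9, counted as within 1.5-fold, 2 further probe sets had intervals of 0.36 to 1.01 and 0.75 to 2.085 log2, which reach beyond it. These intervals come from 4 hearts a group, and RMA (robust multi-array average, the method that made these values) compresses the changes of dim probe sets. For the 75 genes under 5 log2, all counted as within 1.5-fold, a narrow interval therefore does not bound the change in the transcript itself.

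**Figure D2:**
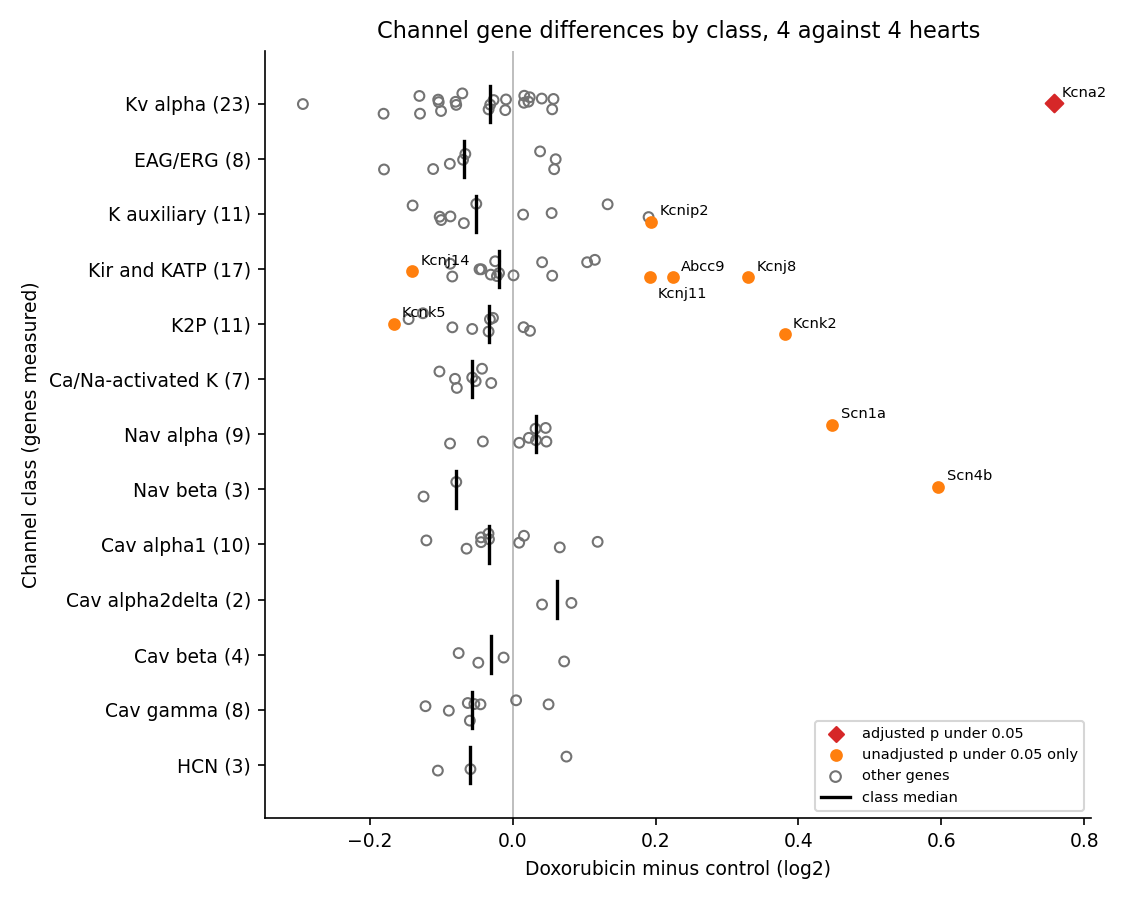
Doxorubicin minus control (log2, horizontal axis) for each of 116 channel genes, by class (vertical axis, with the number of genes measured). Circles are genes, a red diamond marks the one called, orange those at an unadjusted p under 0.05 only, and black bars are class medians, which lie between -0.08 and 0.06.

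Kcna2 encodes the pore subunit Kv1.2, which forms delayed rectifier potassium channels. Its probe set read 5.60, 5.87, 6.20 and 5.77 log2 in control hearts 1 to 4 and 6.70, 6.995, 6.27 and 6.50 log2 in doxorubicin hearts 1 to 4. The groups did not overlap, but doxorubicin heart 3 lay only just above control heart 3. The difference was 0.76 (SE 0.16, 95% interval 0.39 to 1.12, limma adjusted p = 0.0482). A second, dimmer Kcna2 probe set stood at 4.40 ± 0.02 log2 in control and 4.52 ± 0.14 log2 in doxorubicin hearts (SD, n = 4), a difference of 0.12 (limma adjusted p = 0.530).

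The call for Kcna2 was marginal. It held in 8 of 19 alternative analyses, and among those that left out 1 heart it held without control 3 (adjusted p = 0.0378) or doxorubicin 3 (0.0374) only. Without control 1, 2 or 4 the limma adjusted p was 0.0937, 0.0732 and 0.129, and without doxorubicin 1, 2 or 4 it was 0.147, 0.0999 and 0.0866. It was 0.190 with the hybridization covariate, where the difference was 1.13. The difference was positive in every one of these fits, from 0.44 with the mean of both probe sets upward.

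The other 22 Kv pore-subunit genes were not called. Kcna5, the Kv1.5 gene, stood at -0.01 (SE 0.07) and Kcna4, the Kv1.4 gene of the slow transient current, at 0.02 (SE 0.10). Both read dimly, at mean levels of 4.39 and 4.215 log2. Kcng2, a modifier subunit that forms no channel alone, lay at 9.26 ± 0.11 log2 in control and 9.31 ± 0.15 log2 in doxorubicin hearts (SD, n = 4). Kcns3, another modifier subunit, had the lowest difference of all 116 genes, -0.29 (SE 0.14, limma adjusted p = 0.423). Its hearts overlapped, at 6.15, 6.45, 5.82 and 6.47 log2 in controls 1 to 4 and 5.86, 6.11, 5.76 and 5.997 log2 in doxorubicin hearts 1 to 4. With the hybridization covariate the Kcns3 difference was -0.745 (adjusted p = 0.214).

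**Figure D3:**
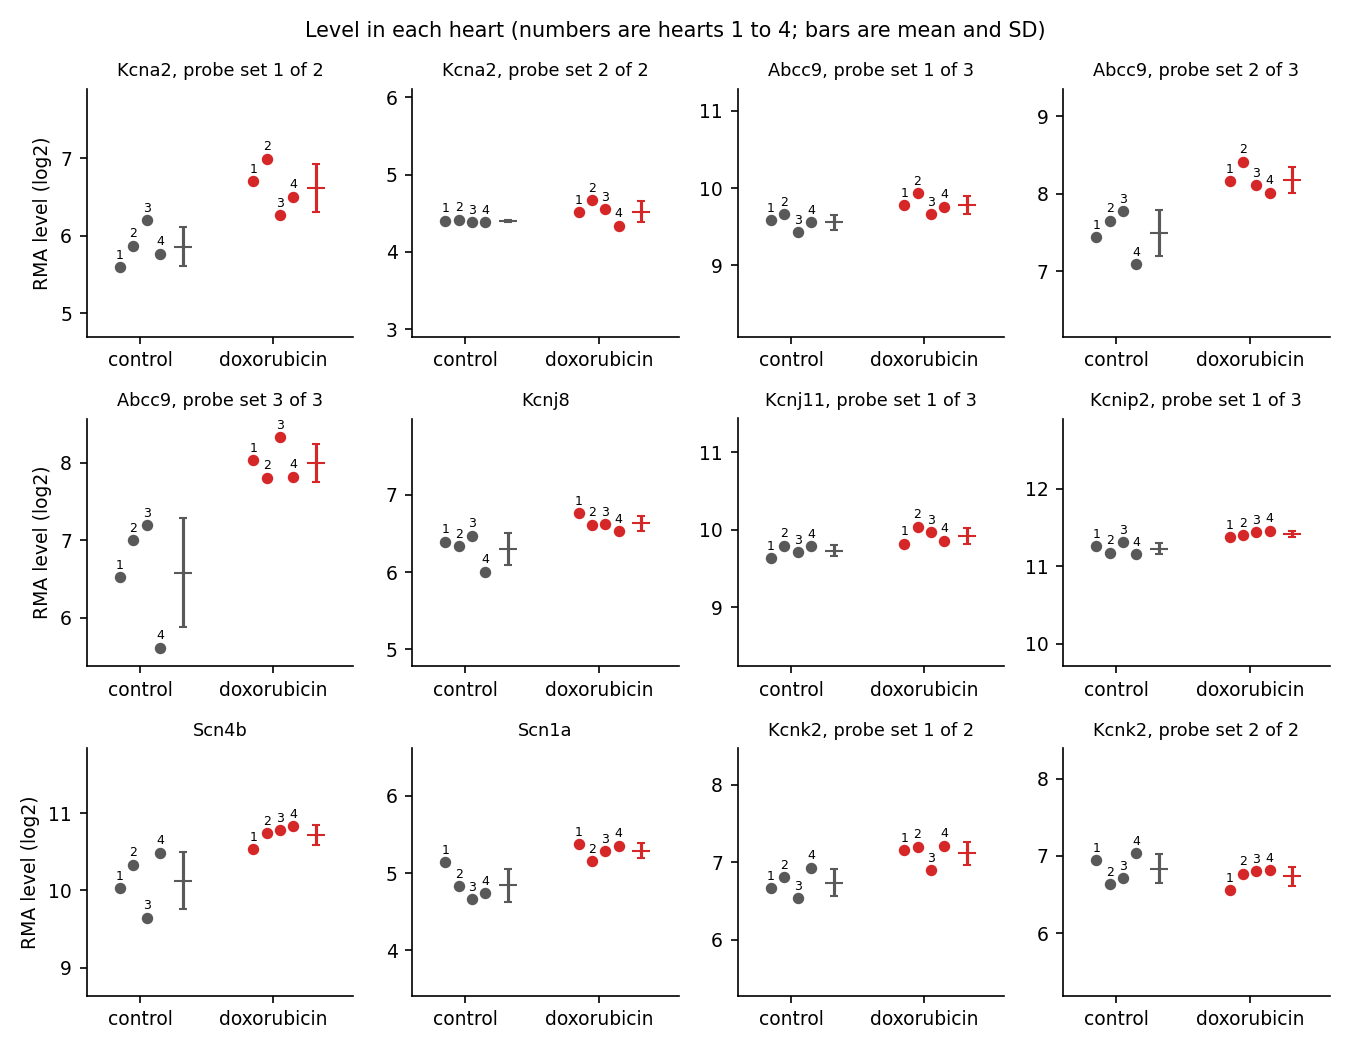
RMA level (log2, vertical axis, each panel spanning the same range) in each control (grey) and doxorubicin (red) heart for 12 probe sets of 8 channel genes; points are hearts 1 to 4, bars the mean and SD. Kcna2 and Abcc9 rose in 1 and 2 of their probe sets, and the remaining panels show probe sets that were not called.

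The ATP-sensitive potassium channel genes had positive differences in all 4 members. Kcnj8 and Abcc9 lie next to each other on chromosome 4, and Kcnj11 and Abcc8 on chromosome 1, with no protein-coding gene between them in the RefSeq annotation of GRCr8. Abcc9, the SUR2 receptor gene, has 3 probe sets. The one that represents the gene read 9.58, 9.66, 9.43 and 9.56 log2 in controls 1 to 4 and 9.78, 9.93, 9.66 and 9.76 log2 in doxorubicin hearts 1 to 4, a difference of 0.22 (SE 0.08) that was not called (limma adjusted p = 0.206). The second read 7.44, 7.65, 7.78 and 7.09 log2 in controls and 8.17, 8.41, 8.11 and 8.01 log2 in doxorubicin hearts. The third read 6.52, 7.01, 7.19 and 5.61 log2 in controls and 8.04, 7.81, 8.33 and 7.82 log2 in doxorubicin hearts. In both of these probe sets every doxorubicin heart lay above every control heart, and control 4 was the lowest.

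The second Abcc9 probe set rose by 0.69 (SE 0.14, 1.61-fold, limma adjusted p = 0.0407) and the third by 1.42 (SE 0.30, 2.67-fold, limma adjusted p = 0.0414). Both were examined as further probe sets of the gene, not as its representative. Which SUR2 transcripts each probe set reads is not given in the sources used here. Left-out hearts ended these calls often: the second held in 2 of 8 such fits and the third in 3 of 8. Without control 1 the limma adjusted p was 0.0812 and 0.0803, and without doxorubicin 1, 2, 3 or 4 it was 0.117, 0.109, 0.102 and 0.0629 for the second and 0.124, 0.0842, 0.129 and 0.0807 for the third. Without control 4 it was 0.0563 for the second, while the third kept the call. Both also lost it with the offset of 16 before log2 (0.0630 and 0.0614) and with the hybridization covariate (0.240 and 0.247, at differences of 0.97 and 1.99). The representative Abcc9 probe set stood at 0.10 with that covariate (adjusted p = 0.962). With the mean of its 3 probe sets Abcc9 was called as a gene (0.78, limma adjusted p = 0.0159).

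The gap between Abcc9 probe sets differed from heart to heart. The third minus the first probe set was -3.06, -2.66, -2.24 and -3.95 log2 in controls 1 to 4 and -1.74, -2.12, -1.32 and -1.94 log2 in doxorubicin hearts 1 to 4. The gap was smaller in every doxorubicin heart than in any control. The exact permutation p was 0.0286, two-sided and the smallest possible, and 0.0571 adjusted over 5 such contrasts, which were chosen after the values were seen. For the second against the first probe set the difference in gap was 0.46 (exact permutation p = 0.0571).

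Kcnj8, the Kir6.1 pore gene, read 6.39, 6.34, 6.47 and 6.005 log2 in controls 1 to 4 and 6.76, 6.61, 6.62 and 6.53 log2 in doxorubicin hearts 1 to 4. The groups did not overlap, and the difference of 0.33 (SE 0.10) was not called (limma adjusted p = 0.160). With the hybridization covariate Kcnj8 stood at 0.57 (adjusted p = 0.319). Kcnj11, the Kir6.2 pore gene of heart muscle, read 9.63, 9.80, 9.71 and 9.79 log2 in controls and 9.82, 10.04, 9.97 and 9.86 log2 in doxorubicin hearts. The groups were just apart, and the difference was 0.19 (SE 0.07, limma adjusted p = 0.238). Both further Kcnj11 probe sets gave a like value, 0.17 (SE 0.07) and 0.21 (SE 0.09), though hearts of both groups overlapped there. Abcc8, the SUR1 gene, stood at 0.11 (SE 0.10).

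Kcnj8 and Abcc9 are also typical genes of pericytes and vascular smooth muscle, and in whole-heart RNA more cells of a type and more RNA per cell cannot be told apart. Of 5 pericyte markers none was called (1 higher and 1 lower at an unadjusted p), with Rgs5 at 0.31 (adjusted p = 0.135) and Pdgfrb at -0.15 (adjusted p = 0.238). The difference was positive for 1 pericyte marker, Rgs5, and negative for 4, with a median of -0.10. Their summed level was 9.67 to 9.86 log2 in control and 9.82 to 10.09 log2 in doxorubicin hearts, and none lay under 4.16 log2. That sum mostly reads Rgs5, which lay at 9.46 log2 against 4.85 to 6.79 log2 for the others. None of 6 smooth muscle markers was called, with a summed level of 10.20 to 11.04 log2 in control and 10.19 to 10.95 log2 in doxorubicin hearts. The part of these cells in the Abcc9 and Kcnj8 values was not tested.

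The sequence upstream of the start of Kcna2, and of the neighbours Abcc9 and Kcnj8, is given because Kcna2 and further probe sets of Abcc9 rose and Kcnj8 lies beside Abcc9. Each line holds the 250 bases before the gene start of the RefSeq table on GRCr8, in the direction of transcription. Capitals mark the Sp1-type GC box GGGCGG on either strand. The Kcna2 and Abcc9 windows lie inside the outermost annotated span of the gene, before one of several starts.
Kcna2, chr2:197393280-197393529, plus strand: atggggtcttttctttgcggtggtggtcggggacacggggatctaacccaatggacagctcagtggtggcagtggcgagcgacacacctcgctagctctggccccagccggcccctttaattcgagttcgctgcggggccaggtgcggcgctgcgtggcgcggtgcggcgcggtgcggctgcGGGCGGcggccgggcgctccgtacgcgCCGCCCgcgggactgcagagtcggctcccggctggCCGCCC
Abcc9, chr4:177386349-177386598, minus strand: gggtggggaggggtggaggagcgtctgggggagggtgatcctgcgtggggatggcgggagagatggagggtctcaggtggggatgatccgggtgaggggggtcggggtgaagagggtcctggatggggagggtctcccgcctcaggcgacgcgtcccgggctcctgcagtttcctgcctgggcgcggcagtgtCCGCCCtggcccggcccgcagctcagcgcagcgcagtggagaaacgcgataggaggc
Kcnj8, chr4:177246549-177246798, minus strand: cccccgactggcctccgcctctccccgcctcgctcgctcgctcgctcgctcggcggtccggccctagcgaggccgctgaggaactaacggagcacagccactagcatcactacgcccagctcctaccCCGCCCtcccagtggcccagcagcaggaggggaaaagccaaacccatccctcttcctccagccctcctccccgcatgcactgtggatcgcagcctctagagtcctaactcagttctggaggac
The GC box occurs 3 times before Kcna2 and 1 time each before Abcc9 and Kcnj8. GC content was 72.4%, 71.2% and 66.8%, against a median of 62.8% over 89 windows of 80 channel genes and 51.2% over 33469 windows of all genes. At least 1 GC box was found in 53.9% of channel gene windows and 30.5% of all windows of that length. No window of the 3 held the cyclic AMP response element TGACGTCA (1.59% of all windows), the E-box CACGTG (5.59%) or the TATA box letters TATAAA (12.9%), each searched on both strands. These are matches of letters only.

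Among the other inward rectifiers no gene was called. Kcnj2, a main gene of the resting current IK1, read dimly at 4.34 ± 0.30 log2 in control and 4.32 ± 0.08 log2 in doxorubicin hearts (SD, n = 4), and its difference of -0.02 had an interval from -0.31 to 0.27. Kcnj12 and Kcnj4, which share that current, stood at -0.02 and 0.06, also at low mean levels of 4.81 and 5.04 log2. A second, dimmer Kcnj4 probe set gave -0.17 (SE 0.08, limma adjusted p = 0.372). Kcnj3 and Kcnj5 make the acetylcholine-gated channel of the atrium and nodes. Kcnj5 lay at 7.20 ± 0.11 log2 in control and 7.31 ± 0.17 log2 in doxorubicin hearts (SD, n = 4), and was highest in doxorubicin 4 (7.53 log2), the heart with the highest summed level of atrial markers. The representative Kcnj3 probe set read highest in control 1 (7.06 log2), the heart with the lowest summed level of atrial markers. In that heart the second Kcnj3 probe set read lowest (6.53 log2) and the third, dimmer one highest (5.93 log2). The 3 Kcnj3 probe sets gave -0.04, 0.14 and -0.17. Kcnj14 was lower at an unadjusted p (-0.14, SE 0.06, limma adjusted p = 0.348).

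Of the transient outward current genes the accessory gene had the largest difference, and none was called. Kcnip2, which encodes KChIP2, read 11.26, 11.17, 11.31 and 11.16 log2 in controls 1 to 4 and 11.38, 11.41, 11.44 and 11.46 log2 in doxorubicin hearts 1 to 4. All doxorubicin hearts lay above all controls within a narrow range. The difference of 0.19 (SE 0.06, 1.14-fold) was not called (limma adjusted p = 0.145). A second probe set gave 0.25 (SE 0.09), and the dimmest of the 3, at 4.19 log2, gave 0.01. Kcnd2, the Kv4.2 gene, stood at -0.03 (SE 0.13, interval -0.32 to 0.25) and Kcnd3, the Kv4.3 gene, at 0.06 (SE 0.06). Kcnd3 read dimly, at a mean level of 4.94 log2, and its 3 probe sets gave differences from -0.18 to 0.06. Of 11 accessory potassium channel genes none was called, with Kcne4 at 0.19 (SE 0.09), Kcnab2 at 0.13 (SE 0.07) and Kcnip3 at -0.10 (SE 0.08). The 4 Kcnab2 probe sets gave differences from -0.09 to 0.13.

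Delayed rectifier genes of the IKr and IKs currents stood close to 0. Kcnh2, the ERG gene, had a difference of 0.06 (interval -0.12 to 0.23), and its partner Kcne2 0.01. Kcnq1, the KvLQT1 gene, lay at 8.15 ± 0.12 log2 in control and 8.04 ± 0.09 log2 in doxorubicin hearts (SD, n = 4), a difference of -0.10 (interval -0.28 to 0.07), and its partner Kcne1 also stood at -0.10. Kcne1 and Kcne2 read dimly, at mean levels of 4.49 and 4.85 log2. Of 8 genes in the EAG and ERG class, 5 had negative differences and none passed at an unadjusted p, the lowest being Kcnh3 at -0.18 (SE 0.09).

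**Figure D4:**
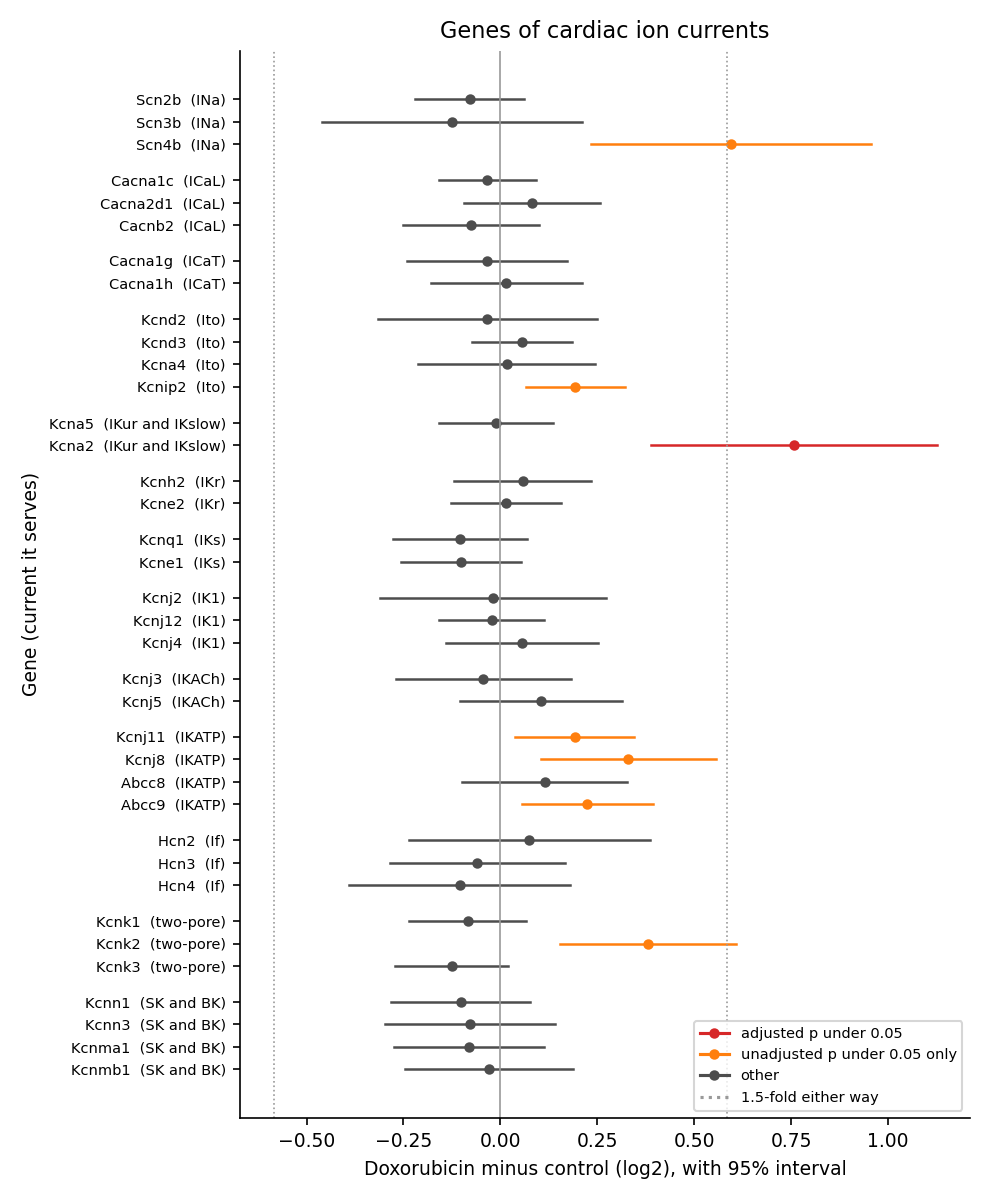
Doxorubicin minus control (log2, horizontal axis) with its 95% interval for 37 channel genes, grouped by the cardiac current they serve (vertical axis); red marks the gene called, orange an unadjusted p under 0.05 only, dotted lines 1.5-fold either way. By the representative probe set, the intervals of 34 genes stay within 1.5-fold, and those of Kcna2, Scn4b and Kcnk2 cross it. The intervals of 2 further Abcc9 probe sets, not drawn, reach beyond 1.5-fold.

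Two-pore channels, which carry background potassium current, had 1 higher and 1 lower gene of 11 at an unadjusted p, and none called. Kcnk2, the stretch-sensitive TREK-1 gene, read 6.66, 6.81, 6.54 and 6.93 log2 in controls 1 to 4 and 7.16, 7.20, 6.90 and 7.22 log2 in doxorubicin hearts 1 to 4. Only doxorubicin 3 fell among the controls, and the difference was 0.38 (SE 0.10, limma adjusted p = 0.104). With the hybridization covariate it was 0.20 (adjusted p = 0.934). A second Kcnk2 probe set of similar brightness did not follow it, at 6.83 ± 0.19 log2 in control and 6.74 ± 0.12 log2 in doxorubicin hearts (SD, n = 4; difference -0.09, SE 0.10). The contrast between these probe sets was 0.48 (exact permutation p = 0.0571, and 0.0571 adjusted over the 5 contrasts). It too was chosen after the values were seen. Kcnk3, the acid-sensitive TASK-1 gene, stood at -0.13 (SE 0.07), and further probe sets gave -0.13 and -0.08. Kcnk5 was lower at an unadjusted p, by 0.17 on the log2 scale (SE 0.06, limma adjusted p = 0.270), at a level of only 4.56 to 4.40 log2.

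All 7 calcium- and sodium-activated potassium channel genes had small negative differences, from -0.10 to -0.03, and none passed at an unadjusted p. Kcnn1 and Kcnn3, SK channel genes, stood at -0.10 and -0.08, and Kcnma1, the BK pore gene, at -0.08. The BK subunit genes Kcnmb1 and Kcnmb4 stood at -0.03 and -0.06, and Kcnt1, a sodium-activated channel gene, at -0.05. The highest level in this class was 5.23 log2. The median difference was -0.057 in this class, against -0.021 over all genes under 5 log2 and -0.007 over all genes at 5 to 6 log2.

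Sodium channel genes gave a pair of the larger differences, neither called. Scn4b encodes the β4 subunit, which modifies sodium channel gating. It read 10.03, 10.33, 9.65 and 10.49 log2 in controls 1 to 4 and 10.53, 10.74, 10.77 and 10.83 log2 in doxorubicin hearts 1 to 4. The controls were more spread than the doxorubicin hearts, and doxorubicin 1 was just above control 4. The difference was 0.60 (SE 0.16, 1.51-fold, interval 0.23 to 0.96, limma adjusted p = 0.110). With the hybridization covariate, which cannot be told apart from the drug here, it was 0.01 (adjusted p = 0.997). Scn2b and Scn3b, the other β subunit genes, stood at -0.08 (SE 0.06) and -0.12 (SE 0.15). A second Scn2b probe set gave 0.07.

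Scn1a, a sodium channel gene best known from neurons, read 5.15, 4.83, 4.66 and 4.74 log2 in controls 1 to 4 and 5.37, 5.15, 5.28 and 5.36 log2 in doxorubicin hearts 1 to 4. Doxorubicin 2 was level with control 1, just above it, and the difference of 0.45 (SE 0.10, limma adjusted p = 0.0644) missed the threshold. It was called in only 3 of 19 alternatives. Among the fits that left out 1 heart, it was called without control 1 only (0.55, adjusted p = 0.00724). The other calls came with array weights (0.51, adjusted p = 0.0207) and with probe sets averaged per gene (adjusted p = 0.0472). Over all 19 the Scn1a difference was 0.30 to 0.55, and its limma adjusted p ran up to 0.840. Neuronal markers were low: 5 of 12 lay under 4.16 log2, none was called (0 higher, 1 lower at an unadjusted p), and their summed level was 8.02 to 8.15 log2 in control and 7.90 to 8.10 log2 in doxorubicin hearts. Among the representative probe sets, that of Scn7a, an atypical sodium channel gene, varied most between hearts of one group. It read 8.82 to 9.78 log2 in control and 9.001 to 9.69 log2 in doxorubicin hearts, with a difference of -0.09 (SE 0.21). Of 9 pore-subunit sodium channel genes, 7 had positive differences, with a median of 0.03. Apart from Scn7a and Scn1a they all lay under 5 log2.

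Calcium channel genes showed no call in any of 4 subunit classes. Cacna1c, the L-type pore gene, read 8.20, 8.21, 8.21 and 8.26 log2 in controls 1 to 4 and 8.15, 8.12, 8.29 and 8.17 log2 in doxorubicin hearts 1 to 4. Doxorubicin hearts 1, 2 and 4 lay just below all controls and doxorubicin 3 just above them, so the drug group spanned the controls. The difference of -0.03 had an interval from -0.16 to 0.09. Its second probe set gave -0.13 (SE 0.09). Cacna2d1 and Cacnb2, the α2δ and β subunit genes of that channel in heart, stood at 0.08 (interval -0.09 to 0.26) and -0.08 (interval -0.25 to 0.10). All 3 Cacnb2 probe sets were slightly negative, down to -0.08. The T-type pore genes Cacna1g and Cacna1h stood at -0.03 and 0.02, and a second Cacna1h probe set gave -0.15 (SE 0.16). By the representative probe sets, the differences of all 24 calcium channel genes ran from -0.12 to 0.12, and none passed at an unadjusted p.

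HCN genes, which carry the pacemaker current, were read with more spread between hearts. Hcn2 lay at 7.30 ± 0.26 log2 in control and 7.37 ± 0.20 log2 in doxorubicin hearts (SD, n = 4), a difference of 0.08 (interval -0.24 to 0.39). Hcn4, the main gene of the sinus node, read 6.03 log2 in control 1 and 5.50 to 5.60 log2 in the other controls, against 5.37 to 5.73 log2 in doxorubicin hearts. Its difference was -0.10 (SE 0.13), and without control 1 it was 0.02. Hcn3 stood at -0.06.

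Probe sets of one gene often read at different levels, and their differences mostly stayed near 0. Of 116 genes 43 had several probe sets, of which 22 had differences of one sign throughout. In no gene did probe sets pass in opposite directions at an unadjusted p. The widest spans of the difference within a gene were 1.19 for Abcc9, 0.63 for Kcna2 and 0.48 for Kcnk2, and the next was 0.30 for Kcnj3. In 8 genes the levels of the probe sets lay at least 2 log2 apart, among them Abcc9, Kcnip2, Kcng2 and Cacna1c.

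Of 23 measured genes for partners, scaffolds and trafficking of channels, 2 fell and none rose, with a median difference of 0.02; of all genes 2.17% fell and 0.802% rose. Rrad, a small GTPase that restrains L-type calcium channels, read 12.17, 11.93, 12.19 and 12.39 log2 in controls 1 to 4 and 11.31, 11.22, 11.69 and 11.15 log2 in doxorubicin hearts 1 to 4. It fell by 0.83 on the log2 scale (SE 0.13, limma adjusted p = 0.00941), with no overlap. Sgk1, a kinase that regulates the surface level of several channels, read 9.51, 9.01, 8.99 and 9.41 log2 in controls and 8.30, 8.01, 8.11 and 8.32 log2 in doxorubicin hearts. It fell by 1.04 on the log2 scale (SE 0.13, limma adjusted p = 0.00265), also with no overlap. Both calls held without any one heart. With the hybridization covariate both lost it (adjusted p = 0.385 and 0.116), while the differences stayed of like size (Rrad -0.94 to -0.75 and Sgk1 -1.19 to -0.95 over all alternatives).

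Other genes of this group were not called. Gem, a relative of Rrad, stood at -0.34 (adjusted p = 0.569), and Fgf13, a sodium channel modulator, at 0.38 (SE 0.11, adjusted p = 0.124). None of 9 gap junction and intercalated disc genes was called (1 higher and 1 lower at an unadjusted p), with Gja1, the connexin 43 gene, at -0.20 (SE 0.06, limma adjusted p = 0.158). None of 10 pump and exchanger genes was called either, where 1 gene was lower and 0 were higher by the unadjusted p, and the median was -0.04. Of all the marker lists for cell types, 1 gene was called, the endothelial receptor gene Tie1, which rose by 0.34 (SE 0.06, limma adjusted p = 0.0148). The Tie1 call held in 13 of 19 alternatives, and its difference was 0.31 to 0.38 in all of them. It was lost without doxorubicin 1, 2 or 3 (adjusted p = 0.0576, 0.0535 and 0.0505), with an intensity trend (0.0556), with the replicate block (0.0732) and with the hybridization covariate (0.456).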

How the data were processed

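RNA of 8 perfused rat hearts was read on 1 array each. The authors deposited probe set intensity values made with RMA, per the submitters' processing notes. RMA removes background, equalizes array distributions and combines probes; its version is not given in the sources used here. The deposited intensity values were linear (array medians 29.9 to 31.0), so log2 was taken, with no offset. RMA makes array distributions alike, so a shift shared by most transcripts would not show.

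The 57 AFFX control probe sets were left out, and 31042 were tested with limma 3.58.1 in R 4.3.3 (lmFit and eBayes, no covariate, two-sided, Benjamini-Hochberg). The annotation gives 20826 of them a single symbol. Symbols were checked through the gene ID against RefSeq (GRCr8), and no member changed name. Promoter windows matched 80 of 116 genes. The script was tested on simulated data. No 2 arrays were identical. Arrays have no sequencing depth; their number limits the precision. Figures used Python 3.11.15 and matplotlib 3.10.9.

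Members, lists, tests and alternatives were chosen with earlier results of these data known. Named were called members, the 10 with the smallest p in each direction, genes of cardiac currents, the 3 with the highest mean in each class, and called genes of the other lists; further genes were named after their values were seen. Alternatives were repeated quantile normalization, median centring, an offset of 16, leaving out the dimmest 25%, an intensity trend, robust eBayes, array weights, the mean of probe sets, adjustment over genes, a replicate block, the hybridization covariate, and leaving out each heart.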

Additional observations from a re-analysis of the deposited data

Results flagged for a closer look

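Among 126 sets of 4 hearts examined for the named channel genes, 1 held a heart apart from the rest, where chance alone flags about 1 in 20. Scn3a, a sodium channel gene that was not called, read 4.38 log2 in control 1 and 4.55 to 4.56 log2 in the other controls. The gap to the nearest heart was 0.944 of the range of the 4, above the 95% critical value of 0.829.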

How the results depend on the processing

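The count of 1 called channel gene was 0 with median centring, with an offset of 16 and with the hybridization covariate, and 2 with array weights (Kcna2 and Scn1a) and with probe sets averaged per gene (Abcc9 and Scn1a). Leaving out each heart in turn gave 0 to 1, and the median difference of channel genes was -0.053 to -0.0113 over all alternatives. Kcna2 stood at limma adjusted p = 0.0507 with median centring, 0.0789 with the offset and 0.0505 with the mean of its probe sets. No alternative called a channel gene lower. The 2 called genes of the other channel-related lists became 0 with the hybridization covariate, where calls over all genes went from 422 to 60 and Rrad and Sgk1 stood at -0.815 and -1.19, and both were called without any one heart. The hybridization control difference was -0.344 to -0.22 without single arrays, and without control 3 the exact permutation p was 0.0571. Replicate numbers did not pair the hearts (correlation of deviations between same-numbered hearts -0.184 to 0.0592); with the replicate block 1 channel gene was called, Kcnk2 (0.38, adjusted p = 0.0467) in place of Kcna2 (adjusted p = 0.107). Signs changed in some fits for 27 of 63 named members, all within 0.133 of 0 and not called. The causes were not tested. Dim signal limits what many of the 116 genes can show, of which 30 lay under 4.16 log2 and 75 under 5 log2.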
